A study of Mus musculus with 14 samples.

Results

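The genes described here are 8 genes of antigen presentation by MHC class II, the molecules that hold peptides of engulfed proteins out to helper T cells: Cd74, H2-Aa, H2-Ab1, H2-Eb1, H2-DMa, H2-DMb1, Ciita and Ctss. They were chosen by symbol from the 24054 rows of the count table, all 8 were found, and all 8 were among the 13588 genes that passed the filter on low counts. RNA of the mouse left ventricle was measured in 14 libraries of 3 groups, with the genotype given as C56Bl6 throughout. The 5 controls had a standard diet for 10 weeks, and no virus is named for them. The 4 libraries of HFpEF-scr and the 5 libraries labelled HFpEF-FoxO1-sh came from mice given a high-fat diet with L-NAME for 6 weeks. L-NAME blocks nitric oxide synthases, and the pairing is a model of heart failure with preserved ejection fraction (HFpEF). Both HFpEF groups also had an adeno-associated virus (AAV) for 4 weeks, carrying a scrambled hairpin in HFpEF-scr and a hairpin against Foxo1 in HFpEF-FoxO1-sh. HFpEF-scr against control therefore differs in diet, labelled weeks of diet, L-NAME and virus together. The promoter of the hairpin and the cells it reached are not given in the sources used here.

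A class II molecule is a pair of an alpha and a beta chain. It is built in the endoplasmic reticulum around the invariant chain, travels to endosomes, and there loses that chain to proteases and takes up a peptide with the help of the DM editor. Dendritic cells, macrophages and B cells are the usual makers, and the coactivator Ciita acts as their switch for class II transcription. In the heart, resident macrophages are a well-known site of class II expression.

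In the libraries labelled HFpEF-FoxO1-sh, 6 of the 8 genes fell against control, in a comparison that called 13.0% of all genes and 6.28% as lower. The label is not borne out by Foxo1 RNA itself, whose level differed between the hairpins by less than its error (-0.04 ± 0.06 on the log2 scale, adjusted p = 0.780). Cd74, the 3 chain genes H2-Aa, H2-Ab1 and H2-Eb1, the editor subunit H2-DMb1 and the protease Ctss fell by between 32.5% (Ctss) and 38.8% (H2-Eb1). H2-DMa and Ciita did not pass the test. Against HFpEF-scr, 1 of the 8 passed in the HFpEF-FoxO1-sh libraries, Ctss, where 3.58% of all genes did, and between HFpEF-scr and control none of the 8 did by edgeR, where 7.37% of all genes did. The mean level of each of the 8 genes was highest in the controls, lower in HFpEF-scr and lowest in HFpEF-FoxO1-sh. That order of means was seen in 17.0% of all genes tested.

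The promoters of class II genes are known for a pair of boxes a fixed distance apart, the X box, bound by the RFX complex, and the Y box, bound by NF-Y. Ciita is recruited to the proteins on these boxes. Stretches that hold such a pair are shown, with the letters searched in capitals, for the members H2-Aa and H2-Eb1 and for H2-Ob, a class II gene outside the 8, because the same layout recurs in genes that stood at different levels here. Ctss is shown beside them because its start lies next to a different sequence, the element read by interferon regulatory factors. Sequences are from RefSeq on GRCm38.p6, 5′ to 3′ on the strand of the gene.
H2-Aa: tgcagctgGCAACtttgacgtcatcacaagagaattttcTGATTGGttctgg
H2-Eb1: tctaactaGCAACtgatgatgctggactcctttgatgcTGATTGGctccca
H2-Ob: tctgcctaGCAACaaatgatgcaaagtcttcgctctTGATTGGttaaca
Ctss: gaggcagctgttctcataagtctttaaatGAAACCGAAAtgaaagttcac

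The stretch of H2-Aa lies at chr17:34287861-34287912 on the minus strand, that of H2-Eb1 at chr17:34305768-34305818 on the plus strand, that of H2-Ob at chr17:34238810-34238858 on the plus strand and that of Ctss at chr3:95526736-95526785 on the plus strand. The capitals mark GNAAC, part of the X box, and TGATTGG, the Y box, in the first 3 stretches, and 2 copies of GAAA with 2 bases between them in Ctss. These letters were chosen after the sequences had been read. Windows of 250 bases before the start were searched on both strands. TGATTGG was found in 7.23% of the 32851 windows in the table, and TGATTGG with GNAAC starting between 25 and 36 bases before it in 0.286%. The pair stood 31 bases apart, start to start, in H2-Aa and H2-DMb1, 30 in H2-Eb1 and 28 in H2-Ob. Of other class II genes outside the 8, H2-Oa held it 31 bases apart and H2-Eb2 30. H2-DMb2, also outside the 8, held TGATTGG 92 bases before the start, but not the pair. The stretch of H2-DMb1 is not printed because it overlaps an annotated exon of that gene. The 2 copies of GAAA were found in 2.98% of windows, in Ctss 21 bases before the start. Neither window of H2-DMa held either motif. The members without an entry were Cd74, H2-Ab1 and Ciita.

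By GENCODE vM21, on GRCm38, the genes lie as follows. On chromosome 17, H2-DMa lies at 34119541 to 34139101, H2-DMb1 at 34153072 to 34160230, H2-Ab1 at 34257689 to 34269419, H2-Aa at 34282744 to 34287823 and H2-Eb1 at 34305867 to 34316674. All are on the plus strand apart from H2-Aa. Cd74 lies on chromosome 18 at 60803848 to 60812652, Ciita on chromosome 16 at 10480059 to 10528418 and Ctss on chromosome 3 at 95526786 to 95556403, each on the plus strand. Of the exon bases of H2-DMa, 10.4% are shared with Brd2, of those of Ciita 3.45% with Dexi and of those of Cd74 0.715% with Mir5107. Whether the counting used strand is not given in the sources used here, so reads on these bases may belong to either gene.

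The libraries held between about 13174100 and 21247200 expected counts, the most in control 1. Levels are CPM, counts scaled to a common library size by the trimmed mean of M-values, and fold changes are log2 values ± SE, negative where the first group of the comparison was lower. Calls are those of edgeR's quasi-likelihood test at 0.05, after Benjamini-Hochberg adjustment of the p-values of every tested gene. Foxo1, the target of the hairpin, was at 44.0 ± 1.93 CPM in the controls (SD, n = 5), 43.5 ± 3.74 in HFpEF-scr (SD, n = 4) and 42.4 ± 2.56 in HFpEF-FoxO1-sh (SD, n = 5). Its log2 fold change of -0.04 ± 0.06 between the hairpins (adjusted p = 0.780) does not show the labelled knockdown in whole ventricle RNA, so each direction given is that of libraries labelled HFpEF-FoxO1-sh. The ventricle was checked by 8 markers of heart muscle cells, whose summed level was between 89327 and 107229 CPM per library. The labels do not say that replicates are separate animals, and p-values then measure only the spread between these libraries.

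**Figure D1:**
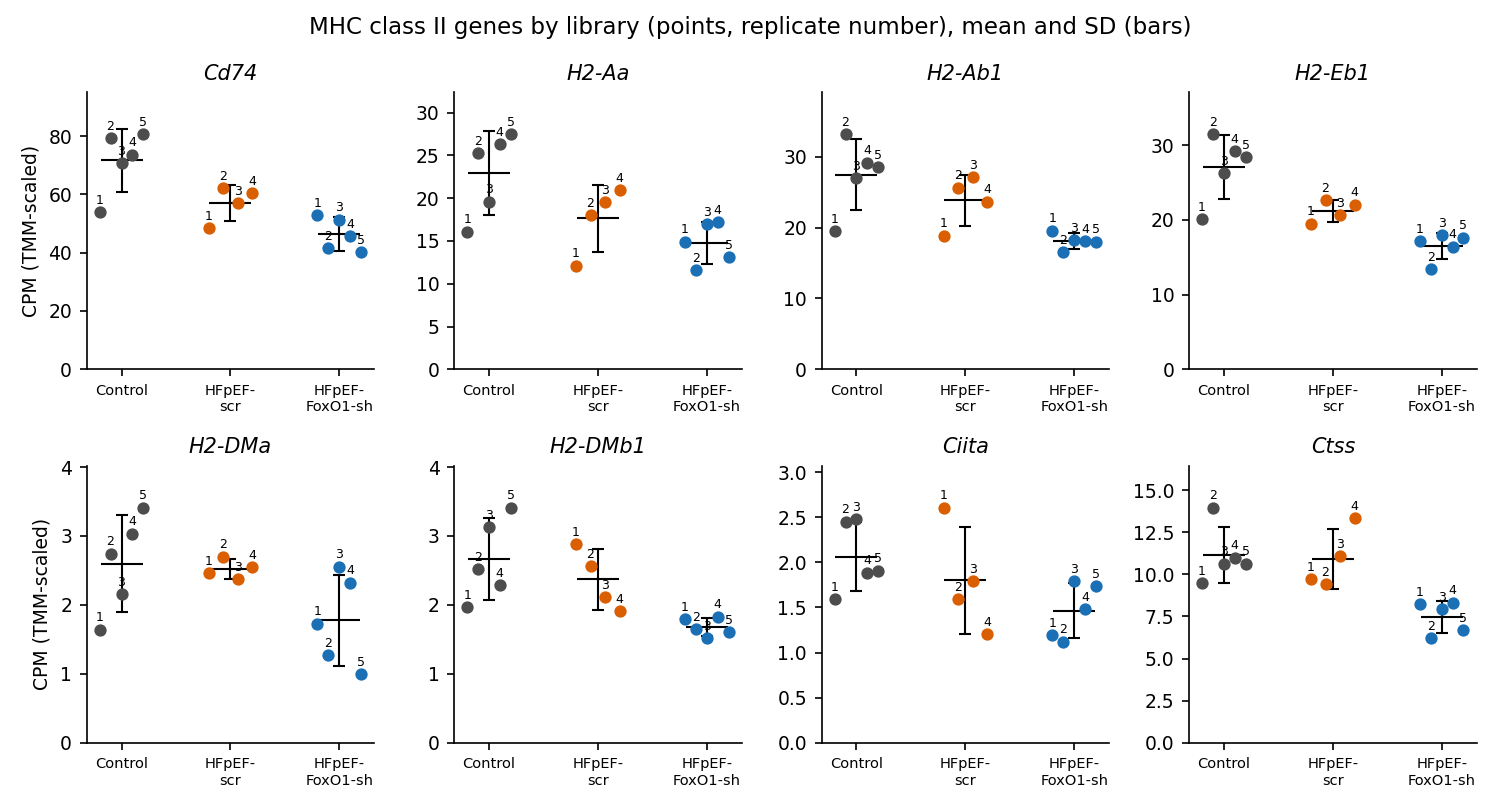
Levels of the 8 class II genes in CPM, on axes that start at 0, for each library (points with replicate numbers) of control, HFpEF-scr and HFpEF-FoxO1-sh; bars are the mean and SD. Control 1 is the lowest control in all 8 panels, and the HFpEF-FoxO1-sh points of H2-Eb1, H2-DMb1 and Ctss lie under every point of both other groups.

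Cd74 encodes the invariant chain, which keeps the groove of new class II molecules closed and guides them to endosomes. It had 53.9, 79.2, 70.8, 73.7 and 80.6 CPM in controls 1 to 5, 48.4, 62.3, 56.9 and 60.4 CPM in HFpEF-scr 1 to 4, and 53.0, 41.7, 51.4, 45.8 and 40.1 CPM in HFpEF-FoxO1-sh 1 to 5. Control 1 lay within the range of HFpEF-scr and just above the highest HFpEF-FoxO1-sh library. HFpEF-FoxO1-sh fell by 0.62 ± 0.11 against control (adjusted p = 0.00119), with no overlap between the groups. The value was -0.33 ± 0.11 for HFpEF-scr against control (adjusted p = 0.0848) and -0.30 ± 0.11 for HFpEF-FoxO1-sh against HFpEF-scr (adjusted p = 0.144), and both missed the threshold.

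H2-Aa and H2-Ab1 encode the alpha and the beta chain of the A molecule. H2-Aa had 16.1, 25.3, 19.6, 26.3 and 27.5 CPM in controls 1 to 5, 12.1, 18.0, 19.5 and 20.9 CPM in HFpEF-scr 1 to 4, and 14.9, 11.6, 17.0, 17.2 and 13.1 CPM in HFpEF-FoxO1-sh 1 to 5. The 3 groups overlapped, with control 1 and HFpEF-scr 1 at the bottom of their groups. H2-Aa fell by 0.63 ± 0.16 in HFpEF-FoxO1-sh against control (adjusted p = 0.0192), a call lost without control 5 (adjusted p = 0.0501). H2-Aa gave -0.37 ± 0.17 for HFpEF-scr against control (adjusted p = 0.202) and -0.26 ± 0.18 between the hairpins (adjusted p = 0.450).

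H2-Ab1 had 19.4, 33.2, 27.0, 29.2 and 28.5 CPM in controls 1 to 5, 18.9, 25.6, 27.1 and 23.7 CPM in HFpEF-scr 1 to 4, and 19.6, 16.5, 18.2, 18.1 and 18.0 CPM in HFpEF-FoxO1-sh 1 to 5. The HFpEF-FoxO1-sh libraries stood close together, and 4 of the 5 were under every control. The fall against control was 0.60 ± 0.12 on the log2 scale (adjusted p = 0.00438). H2-Ab1 gave -0.40 ± 0.13 between the hairpins (adjusted p = 0.0890) and -0.20 ± 0.13 in HFpEF-scr against control (adjusted p = 0.369). The last value was -0.10 without HFpEF-scr 1 and -0.30 without control 1.

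H2-Eb1 encodes the beta chain of the E molecule. It had 20.1, 31.5, 26.3, 29.2 and 28.4 CPM in controls 1 to 5, 19.5, 22.6, 20.6 and 22.0 CPM in HFpEF-scr 1 to 4, and 17.1, 13.4, 17.9, 16.4 and 17.6 CPM in HFpEF-FoxO1-sh 1 to 5. Every HFpEF-FoxO1-sh library was under every library of both other groups. H2-Eb1 had the largest fall of the 8 genes against control, 0.71 ± 0.11 on the log2 scale (adjusted p = 4.49e-04). H2-Eb1 gave -0.36 ± 0.11 between the hairpins (adjusted p = 0.0844) and -0.35 ± 0.11 in HFpEF-scr against control (adjusted p = 0.0657).

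The alpha chain that would pair with H2-Eb1 is listed in the table as H2-Ea-ps, which the annotation types as a polymorphic pseudogene at 34341959 to 34344645 on chromosome 17. Mouse strains of the b haplotype, C57BL/6 among them, are known to carry a defective copy of this gene and to lack the E molecule. H2-Ea-ps had 0 counts in each of the 14 libraries, which allows up to between 0.141 and 0.228 CPM per library (3 counts of the library's total, for counting error only). H2-Eb1 was thus counted in every library, with at least 180 counts, beside no count for its partner chain.

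H2-DMa and H2-DMb1 encode the alpha and a beta chain of DM, the editor that exchanges the last piece of the invariant chain for a peptide. H2-DMa had 1.64, 2.75, 2.15, 3.03 and 3.41 CPM in controls 1 to 5, 2.46, 2.70, 2.37 and 2.55 CPM in HFpEF-scr 1 to 4, and 1.73, 1.27, 2.55, 2.32 and 1.00 CPM in HFpEF-FoxO1-sh 1 to 5. These levels rest on 15 to 50 counts per library, and the groups overlapped. None of its values passed the test, with -0.02 ± 0.25 in HFpEF-scr against control (adjusted p = 0.966), -0.50 ± 0.26 between the hairpins (adjusted p = 0.299) and -0.53 ± 0.24 in HFpEF-FoxO1-sh against control (adjusted p = 0.175).

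H2-DMb1 had 1.97, 2.52, 3.13, 2.29 and 3.41 CPM in controls 1 to 5, 2.89, 2.56, 2.11 and 1.91 CPM in HFpEF-scr 1 to 4, and 1.79, 1.64, 1.52, 1.83 and 1.60 CPM in HFpEF-FoxO1-sh 1 to 5. The HFpEF-FoxO1-sh libraries lay under all others. H2-DMb1 fell by 0.66 ± 0.18 against control (adjusted p = 0.0244), and gave -0.49 ± 0.19 between the hairpins (adjusted p = 0.157) and -0.16 ± 0.18 in HFpEF-scr against control (adjusted p = 0.645). The call against control was lost without control 3 (adjusted p = 0.0627), control 5 (0.0669), HFpEF-FoxO1-sh 3 (0.0581) or HFpEF-FoxO1-sh 5 (0.0529). Some of its counts were not whole, which marks reads that also fit another gene. The paralog H2-DMb2 had at most 11.3 counts in a library, so the split between them is uncertain, and with the 2 summed the fall against control was 0.56 (adjusted p = 0.0467).

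Ciita, the coactivator without which class II genes are barely transcribed, was the least abundant of the 8 per length. It had 1.59, 2.45, 2.48, 1.89 and 1.91 CPM in controls 1 to 5, 2.60, 1.59, 1.79 and 1.20 CPM in HFpEF-scr 1 to 4, and 1.20, 1.12, 1.79, 1.48 and 1.73 CPM in HFpEF-FoxO1-sh 1 to 5. HFpEF-scr 1, lowest of its group for Cd74 and the 3 chains, was its highest for Ciita. With 15 to 38 counts per library the values were -0.19 ± 0.23 in HFpEF-scr against control (adjusted p = 0.673), -0.29 ± 0.24 between the hairpins (adjusted p = 0.534) and -0.48 ± 0.22 in HFpEF-FoxO1-sh against control (adjusted p = 0.173). The 95% interval of the last ran from -48.0% to -0.855%, so a fall as large as those of the chains was not excluded at this depth. Without HFpEF-scr 1 the value between the hairpins was -0.06, and in HFpEF-scr against control it ran from -0.41 without HFpEF-scr 1 to -0.04 without HFpEF-scr 4.

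Ctss encodes cathepsin S, the protease that cuts the invariant chain in antigen-presenting cells. It had 9.47, 13.9, 10.6, 11.0 and 10.6 CPM in controls 1 to 5, 9.71, 9.42, 11.1 and 13.3 CPM in HFpEF-scr 1 to 4, and 8.23, 6.20, 7.93, 8.31 and 6.67 CPM in HFpEF-FoxO1-sh 1 to 5. Controls and HFpEF-scr shared a range, and every HFpEF-FoxO1-sh library lay under both. Ctss fell by 0.54 ± 0.13 between the hairpins (adjusted p = 0.0352) and by 0.57 ± 0.12 against control (adjusted p = 0.00725), and gave -0.03 ± 0.13 in HFpEF-scr against control (adjusted p = 0.927). The call between the hairpins was kept without HFpEF-scr 1 or HFpEF-scr 2 and lost without any 1 of the other 7 libraries, with adjusted p from 0.0558 without HFpEF-FoxO1-sh 3 to 0.0790 without HFpEF-FoxO1-sh 2. Between them lay the refits without HFpEF-FoxO1-sh 4 (adjusted p = 0.0560), HFpEF-FoxO1-sh 1 (0.0611), HFpEF-FoxO1-sh 5 (0.0614), HFpEF-scr 4 (0.0715) and HFpEF-scr 3 (0.0732).

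**Figure D2:**
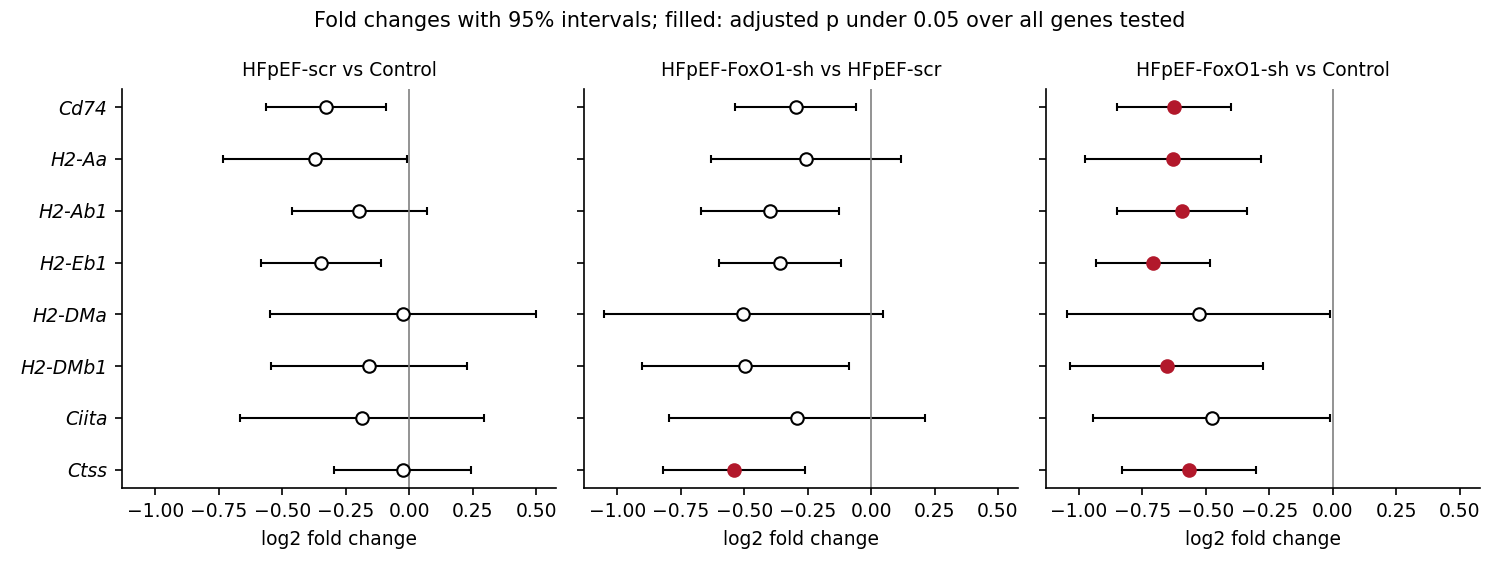
Log2 fold changes of the 8 class II genes (points) with 95% intervals (bars) in the 3 comparisons; filled points passed the adjusted threshold of 0.05. All 24 points lie under 0, with 0 filled in HFpEF-scr against control, 1 between the hairpins and 6 in HFpEF-FoxO1-sh against control.

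HFpEF-scr against control asks what the HFpEF regime with a scrambled hairpin did to class II expression. None of the 8 genes was called by edgeR, where 7.37% of all genes were, and 3 of them, Cd74, H2-Aa and H2-Eb1, had an unadjusted p under 0.05. DESeq2 called Cd74 (adjusted p = 0.0475) and H2-Eb1 (adjusted p = 0.0366), and limma voom called none. The log2 fold changes ran from -0.37 (H2-Aa) to -0.02 (H2-DMa) with a median of -0.19, against a median of 0.00 over all genes tested. Leaving out control 1, the lowest control for all 8 genes and the library with the most counts, led to calls of Cd74 (-0.42, adjusted p = 0.0135) and H2-Eb1 (-0.44, adjusted p = 0.00638). No member separated these groups, where 8.93% of all genes did.

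The comparison of the hairpins, HFpEF-FoxO1-sh against HFpEF-scr, holds the diet and L-NAME the same. Of the 8 genes 1 was called, Ctss, in a comparison that called 3.58% of all genes and 2.26% as lower. The median of the 8 was -0.38, against 0.00 over all genes. The groups did not overlap for H2-Eb1, H2-DMb1 and Ctss, each lower in HFpEF-FoxO1-sh, and 4.23% of all genes were separated in that direction. The HFpEF-scr libraries are shared with the comparison before, so a low HFpEF-scr level enters both with opposite signs.

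HFpEF-FoxO1-sh against control spans the regime and the hairpin together. Of the 8 genes 6 fell and none rose, in a comparison that called 13.0% of all genes and 6.28% as lower. Their median was -0.61, against 0.00 over all genes. The groups did not overlap for Cd74, H2-Eb1, H2-DMb1 and Ctss, and 5.53% of all genes lay lower in that way. The 2 members that did not pass, H2-DMa and Ciita, were among the 3 with the fewest counts.

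Per length, Cd74 was the most abundant of the 8 genes in each group. Levels in CPM per kilobase of the longest principal transcript were 50.8 ± 7.58 in the controls (SD, n = 5) for Cd74, 22.7 ± 4.15 for H2-Ab1, 20.3 ± 4.35 for H2-Aa, 16.2 ± 2.59 for H2-Eb1 and 8.22 ± 1.24 for Ctss. H2-DMb1 at 1.90 ± 0.424, H2-DMa at 1.57 ± 0.425 and Ciita at 0.343 ± 0.0644 followed. In the controls the ranges of the neighbours H2-Ab1 and H2-Aa overlapped, as did those of H2-Aa and H2-Eb1 and of the DM genes. With the length of all annotated exons in place of 1 transcript, Cd74 stayed first and Ciita last, and H2-Aa moved from the third to the fifth place in each group.

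Cd74 made up between 40.2% and 45.1% of their summed CPM in all 14 libraries. Cd74 is itself part of that sum, so the spread of this share cannot be set against that of a ratio between genes. The ratio of H2-Aa to H2-Ab1 ran from 0.642 in HFpEF-scr 1 to 0.964 in control 5. That of Ctss to Cd74 ran from 0.132 in control 5 to 0.220 in HFpEF-scr 4. That of Cd74 to the summed 3 chains ran from 0.824 in HFpEF-FoxO1-sh 5 to 1.03 in HFpEF-FoxO1-sh 1. The ratio of Cd74 to the summed 3 chains was 0.930 ± 0.0497 in the controls (SD, n = 5), 0.913 ± 0.0497 in HFpEF-scr (SD, n = 4) and 0.941 ± 0.0847 in HFpEF-FoxO1-sh (SD, n = 5). The log2 ratio of each other member to Cd74 was compared in 21 exact two-sided permutation tests over libraries. With groups of 4 or 5 libraries, no ratio on its own could reach an adjusted p under 0.05 over the 21 tests. These tests therefore cannot show that the proportions were kept. The smallest exact p was that of H2-DMa in HFpEF-scr against control, where the ratio was higher by 0.33 (exact p = 0.0476, adjusted p = 0.667 over the 21). For Ctss the ratio differed by 0.29 in that comparison (exact p = 0.0794) and by -0.24 between the hairpins (exact p = 0.0952), each with adjusted p = 0.667.

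Across the 14 libraries, Pearson's r of log2 CPM between Cd74, H2-Aa, H2-Ab1 and H2-Eb1 ran from 0.867 to 0.941, and from 0.757 to 0.833 after each group had been centred on its mean. Ciita went with Cd74 less closely, at 0.445 and at -0.06 after centring. Over all 28 pairs the median was 0.724, or 0.488 after centring. The points share their libraries and scaling, and genes with few counts carry more counting error.

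Of 12038 other genes whose mean reached 1 CPM, the 10 whose log2 CPM over the 14 libraries was most like the mean standardised profile of the members were Pcdhgc3, Nckap1l, Spon1, Far1, Fam129a, Arsb, Amot, Lsmem1, Rasa3 and Arhgap30, with r from 0.901 to 0.867. Since the profile is itself lowest in HFpEF-FoxO1-sh, genes chosen for likeness to it are lower there by that choice, and their levels are given as a description. Nckap1l, an actin regulator of blood cells, had r = 0.893, and 0.821 after each group had been centred. Its level was 6.51 CPM in the controls, 6.15 in HFpEF-scr and 4.82 in HFpEF-FoxO1-sh. Arhgap30, a GTPase-activating protein, was at 5.59, 5.36 and 3.81 CPM in the same groups, and Arsb, a lysosomal sulfatase, at 17.9, 17.4 and 14.6 CPM. Pcdhgc3, the most alike of all (r = 0.901, and 0.657 after centring), was at 49.2, 46.4 and 40.2 CPM. Spon1 was at 39.0, 34.4 and 29.6 CPM, so the likeness was not confined to genes of blood cells or lysosomes.

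**Figure D3:**
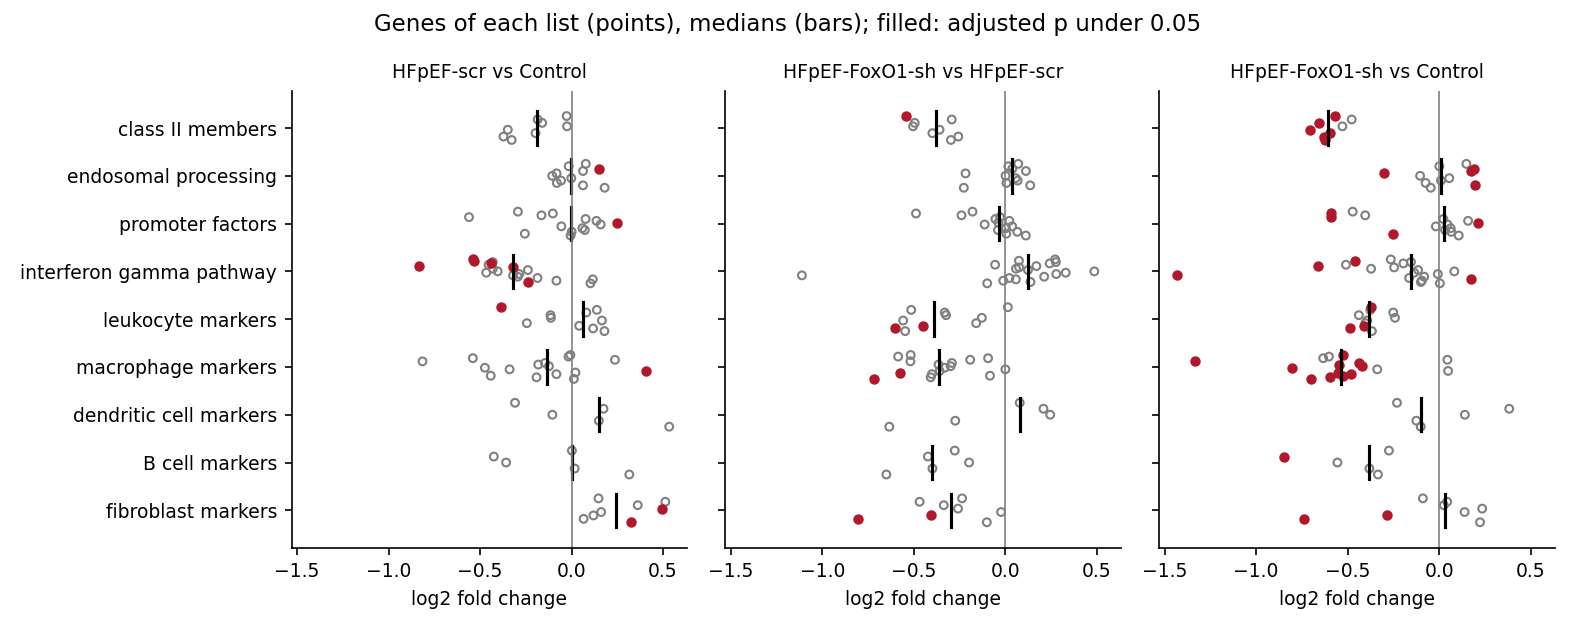
Log2 fold changes of every tested gene (points) in 9 lists, with the list's median (bars), in the 3 comparisons; filled points had an adjusted p under 0.05. In HFpEF-FoxO1-sh against control the medians of the class II members (-0.61) and of the macrophage markers (-0.54) lie side by side, and that of endosomal processing (0.01) lies at 0.

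Other genes of the pathway were read from lists of symbols. Of 5 other class II genes, H2-Ob, a chain of the DO molecule that restrains DM, was the 1 with enough counts to be tested. It was at 0.932 ± 0.248 CPM in the controls (SD, n = 5) and 0.624 ± 0.0972 in HFpEF-FoxO1-sh (SD, n = 5), a log2 fold change of -0.55 ± 0.32 (adjusted p = 0.286). H2-Eb2 and H2-Oa had at most 2 and 3 counts in a library.

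Of 11 other genes of endosomal processing and turnover, 3 rose and 1 fell in HFpEF-FoxO1-sh against control (13.0% of all genes called), with a median of 0.01. In HFpEF-scr against control 1 rose (7.37% of all genes called). Between the hairpins (3.58% of all genes called by edgeR) none of the 11 was called by edgeR, DESeq2 or limma voom. By edgeR 3 of them, Lgmn, Cst3 and Ctsz, had an unadjusted p under 0.05 there. In HFpEF-FoxO1-sh against control Lgmn, an endosomal endopeptidase, rose by 0.20 ± 0.06 (adjusted p = 0.0277) and Cst3, an inhibitor of cathepsins, by 0.18 ± 0.04 (adjusted p = 0.0171). Sppl2a, the membrane protease that clears the last stub of Cd74, rose by 0.19 ± 0.04 (adjusted p = 0.00484). Ctsz, another cathepsin, fell by 0.30 ± 0.09 (adjusted p = 0.0348). Sppl2a was also the 1 gene that rose in HFpEF-scr against control, with 0.15 ± 0.04 (adjusted p = 0.0370). Marchf1 and Marchf8, ligases that mark class II for turnover, could not be matched, because such symbols had become dates in the table.

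Of 14 factors that act at class II promoters or with Ciita, 3 fell and 1 rose by edgeR in HFpEF-FoxO1-sh against control, with a median of 0.03. That comparison called 13.0% of all genes, and HFpEF-scr against control 7.37%. In HFpEF-FoxO1-sh against control Irf8, a transcription factor of macrophages and dendritic cells, fell by 0.59 ± 0.15 (adjusted p = 0.0157). Its 5 HFpEF-FoxO1-sh libraries lay under all controls. Nlrc5, the counterpart of Ciita for class I genes, fell by 0.59 ± 0.19 (adjusted p = 0.0483), and Rfxank, a subunit of the RFX complex, by 0.25 ± 0.08 (adjusted p = 0.0387). Limma voom did not call Nlrc5. In HFpEF-scr against control Nlrc5 gave -0.56 ± 0.20 (adjusted p = 0.0967) and Rfxank -0.25 ± 0.08 (adjusted p = 0.0630), and DESeq2 called Rfxank there. Between the hairpins Nlrc5 gave -0.03 ± 0.21 and Rfxank 0.01 ± 0.08. Atf1 rose by 0.21 ± 0.05 in HFpEF-FoxO1-sh against control (adjusted p = 0.0158). It was also the 1 call by edgeR in HFpEF-scr against control, where its rise was 0.25 ± 0.06 (adjusted p = 0.0157). Rfx5, the subunit that binds the X box, gave 0.11 ± 0.12 in HFpEF-FoxO1-sh against control (adjusted p = 0.605). None of the 14 was called between the hairpins by edgeR, DESeq2 or limma voom, and by edgeR Irf8 alone had an unadjusted p under 0.05 (-0.49 ± 0.16, adjusted p = 0.0890).

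Interferon gamma is the classical inducer of Ciita, and 19 genes of its pathway were tested. In HFpEF-scr against control 6 fell and none rose by edgeR, which called 7.37% of all genes there, and the median was -0.32. The 6 included Iigp1, an interferon-induced GTPase, by 0.83 ± 0.14 on the log2 scale (adjusted p = 0.00268), the receptor subunit Ifngr2 by 0.24 ± 0.06 (adjusted p = 0.0236), the checkpoint ligand Cd274 by 0.54 ± 0.13 (adjusted p = 0.0211) and the peptide transporter Tap1 by 0.53 ± 0.14 (adjusted p = 0.0283). Between the hairpins edgeR and limma voom called none, DESeq2 called 1 (Gbp5), and 4 had an unadjusted p under 0.05 by edgeR. There 15 of the 19 lay above 0 and the median was 0.12, against -0.38 for the class II genes. In HFpEF-FoxO1-sh against control, where 13.0% of all genes were called, 3 fell, Iigp1, Tap1 and the feedback inhibitor Socs1 (-1.43 ± 0.37, adjusted p = 0.0195). The kinase Jak2 rose there by 0.17 ± 0.05 (adjusted p = 0.0299). Ifng itself had 0 counts in all libraries, which allows up to between 0.141 and 0.228 CPM.

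Part of the markers of macrophages and of leukocytes at large fell with the class II genes in the libraries labelled HFpEF-FoxO1-sh. In bulk RNA, fewer cells of a type and less RNA per cell cannot be told apart. Of 16 macrophage markers 11 fell and none rose against control, where 13.0% of all genes were called, with a median of -0.54. Between the hairpins, where edgeR called 3.58% of all genes, 2 fell by edgeR, with a median of -0.36. By edgeR 9 had an unadjusted p under 0.05 there. DESeq2, which called 857 of 13316 genes, called 5 of the markers (Emr1, Csf1r, Mrc1, Lyve1 and Mpeg1), and limma voom called 2. Of the 16 markers 15 lay under 0 between the hairpins. Their summed level was between 169 and 214 CPM in HFpEF-FoxO1-sh, between 221 and 281 in HFpEF-scr and between 234 and 311 in the controls, so that every HFpEF-FoxO1-sh library lay under all others. Csf1r, the receptor for the macrophage growth factor, fell by 0.60 ± 0.11 against control (adjusted p = 0.00161), Emr1, which encodes F4/80, by 0.70 ± 0.13 (adjusted p = 0.00271), Folr2 by 0.80 ± 0.16 (adjusted p = 0.00388) and the mannose receptor Mrc1 by 0.55 ± 0.11 (adjusted p = 0.00412). Emr1 and Mrc1 also fell between the hairpins, by 0.71 ± 0.14 (adjusted p = 0.0135) and 0.58 ± 0.12 (adjusted p = 0.0166). Of 10 markers of all leukocytes 3 fell by edgeR against control (Coro1a, Laptm5 and Cyba) and 2 between the hairpins (Coro1a and Laptm5). By edgeR 6 had an unadjusted p under 0.05 between the hairpins. DESeq2 called 4 there (Ptprc, Coro1a, Laptm5 and Lcp1) and limma voom 1 (Laptm5). Of the 10 markers 9 lay under 0 between the hairpins. Their summed level was between 70.5 and 79.7 CPM in HFpEF-FoxO1-sh, between 90.3 and 115 in HFpEF-scr and between 84.8 and 118 in the controls. Of 6 monocyte markers 3 were tested. Against control 1 of them rose (Ly6c1) and none fell by edgeR, with a list median of 0.45. DESeq2 also called Itgam there (-0.90 ± 0.31 and adjusted p = 0.0685 by edgeR). Between the hairpins 1 fell (Itgam) by edgeR and DESeq2 but not by limma voom, with a median of 0.03. In HFpEF-scr against control none was called by edgeR, DESeq2 or limma voom, and Ly6c1 had an unadjusted p under 0.05 by edgeR. Their summed level was between 82.7 and 112 CPM in HFpEF-FoxO1-sh, between 73.8 and 106 in HFpEF-scr and between 70.8 and 80.6 in the controls. Every HFpEF-FoxO1-sh library lay above every control, but most of each sum was Ly6c1, which is also found on endothelium. Ly6c1 had means of 91.3, 77.8 and 66.9 CPM in the same order of groups. Against the controls, the mean of Ccr2 was higher in HFpEF-FoxO1-sh (3.93 against 2.87 CPM) and that of Itgam lower (2.70 against 5.11 CPM). The part of macrophage, monocyte or other leukocyte RNA in the class II levels was not tested.

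In HFpEF-scr against control, where edgeR called 7.37% of all genes, 1 of 16 macrophage markers rose, Lyve1, by 0.41 ± 0.11 (adjusted p = 0.0308). None fell by edgeR, and the median was -0.13 beside -0.19 for the class II genes. DESeq2 also called Cx3cr1, a chemokine receptor of macrophages, which had -0.81 ± 0.28 by edgeR (adjusted p = 0.0900). Of the leukocyte markers Cyba fell by 0.38 ± 0.10 (adjusted p = 0.0347), with a list median of 0.06. HFpEF-scr 1, which had the lowest summed class II level of its group at 117 CPM, had its highest summed macrophage level at 281 CPM and leukocyte level at 115 CPM. Its red cell markers summed to 5659 CPM, against 517 to 1612 CPM in the other 13 libraries. Without HFpEF-scr 1 the comparison with control gave -0.26 for Cd74 (adjusted p = 0.184) and -0.23 for H2-Aa (adjusted p = 0.413).

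**Figure D4:**
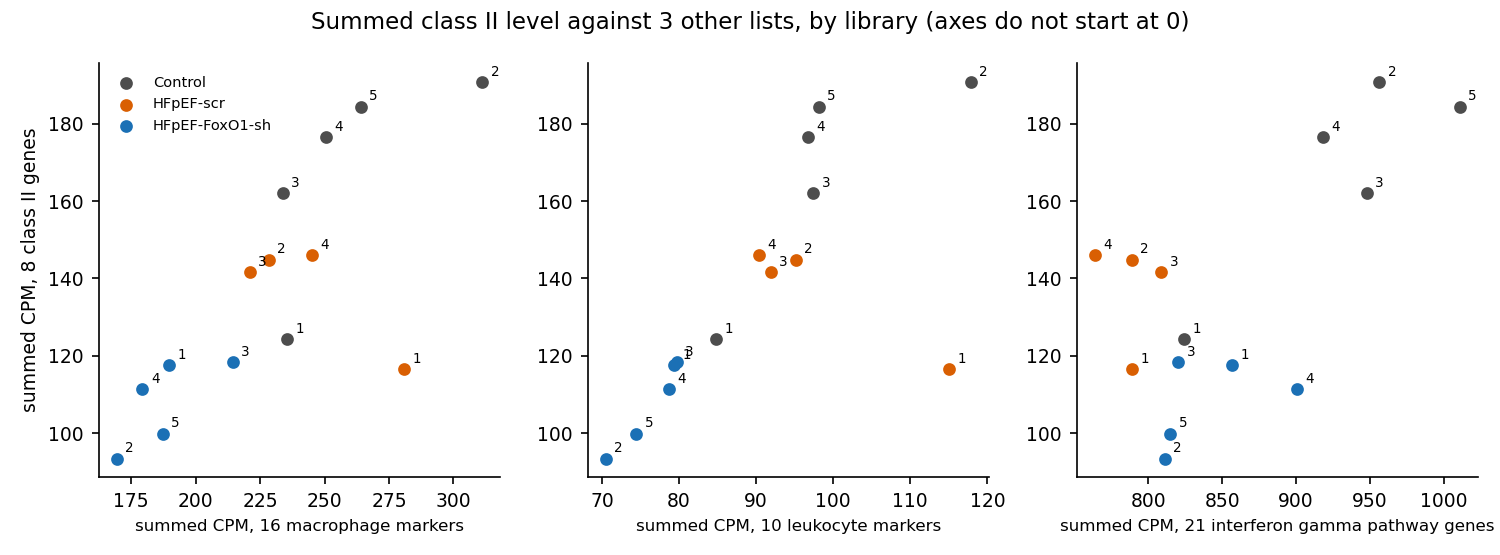
Summed CPM of the 8 class II genes (vertical axis) against the summed CPM of 16 macrophage markers, 10 leukocyte markers and 21 interferon gamma pathway genes (horizontal axes, which do not start at 0), by library with replicate numbers. The HFpEF-FoxO1-sh libraries are lowest on both marker axes, HFpEF-scr 1 lies apart with a low class II sum of 117 and high marker sums, and on the interferon axis the HFpEF-scr libraries lie at 764 to 809 CPM.

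Other cells that make class II were present at low levels. Of 11 dendritic cell markers 5 could be tested and none was called in any comparison by edgeR, DESeq2 or limma voom. By edgeR 1 had an unadjusted p under 0.05, Zbtb46 between the hairpins, at -0.27 ± 0.11 (adjusted p = 0.160). Clec9a, a marker of cross-presenting dendritic cells, gave 0.38 ± 0.18 in HFpEF-FoxO1-sh against control (adjusted p = 0.191). The summed dendritic level was between 18.4 and 24.8 CPM in HFpEF-FoxO1-sh, between 20.9 and 25.4 in HFpEF-scr and between 18.4 and 23.2 in the controls, so the 3 groups overlapped. Most of each sum was Zbtb46, with means of 11.5, 14.0 and 12.5 CPM in the same order, so the sums say little about the other markers. Bulk RNA does not show which cells the Zbtb46 RNA came from, and the part of dendritic cells in it was not tested. Flt3 and Cd209a had at most 3 and 5 counts in a library.

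Of 9 B cell markers found, 5 were tested and 1 fell, Blk, a kinase of B cells, by 0.85 ± 0.23 in HFpEF-FoxO1-sh against control (adjusted p = 0.0231). That comparison called 13.0% of all genes. Cd79a, a part of the B cell receptor, was under 1 CPM in every group mean. The summed level was between 4.42 and 6.27 CPM in HFpEF-FoxO1-sh, between 4.68 and 9.28 in HFpEF-scr and between 6.61 and 9.07 in the controls. Of 10 markers of T and NK cells, Thy1 alone was tested, at -0.30 ± 0.13 in HFpEF-FoxO1-sh against control (adjusted p = 0.137). Cd3e and Cd3g had at most 6 and 5 counts in a library. Thy1 had group means between 7.12 and 8.74 CPM, and the part of T or NK cells in its RNA was not tested. Of the class II co-receptors and co-stimulators 5 of 8 were tested and edgeR and limma voom called none, while DESeq2 called 1 between the hairpins (Cd83). By edgeR 1, 3 and 3 had an unadjusted p under 0.05 in HFpEF-scr against control, between the hairpins and in HFpEF-FoxO1-sh against control. Cd86, a co-stimulator of antigen-presenting cells, gave -0.65 ± 0.22 in HFpEF-FoxO1-sh against control (adjusted p = 0.0645) and -0.64 ± 0.24 between the hairpins (adjusted p = 0.138). Cd4, the co-receptor for class II, was at 0.997, 0.933 and 0.691 CPM in the means of control, HFpEF-scr and HFpEF-FoxO1-sh.

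For cells that seldom make class II, the counts called are to be read against the 7.37%, 3.58% and 13.0% of all genes called in HFpEF-scr against control, between the hairpins and in HFpEF-FoxO1-sh against control. Of 8 fibroblast markers 2 rose in HFpEF-scr against control (Pdgfra and Lum), 2 fell between the hairpins (Col1a1 and Col1a2) and the same 2 fell in HFpEF-FoxO1-sh against control. Of 8 endothelial markers Pecam1 rose in HFpEF-scr against control and fell between the hairpins, and Cdh5 fell in HFpEF-FoxO1-sh against control. Of 8 heart muscle markers Myh6 and Mybpc3 fell in HFpEF-scr against control, Mybpc3 fell in HFpEF-FoxO1-sh against control, and none was called between the hairpins by edgeR, where 2 had an unadjusted p under 0.05 and DESeq2 called Tnni3. None of 5 red cell or 2 tested neutrophil markers was called by edgeR, DESeq2 or limma voom, with DESeq2 giving no adjusted p for 3 red cell markers. Their unadjusted p was under 0.05 for Alas2 in both comparisons with HFpEF-scr and for Csf3r between the hairpins (edgeR). The part of these cells in the class II levels was not tested.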

How the data were processed

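Left ventricles were measured as messenger RNA in 14 libraries. Per the labels' protocols, RNA was extracted with an RNeasy kit, selected on poly(A) beads and made into libraries with a Swift Biosciences kit. The submitters' processing notes name Bowtie2 2.1.0, RSEM 1.2.15 and mm10, without role or order. The deposited values are expected counts, which divide reads that fit several genes. They were rounded, filtered by filterByExpr (13588 of 24054 genes kept), and scaled by TMM. A single quasi-likelihood fit of all libraries, with a coefficient per group, was made with edgeR 4.0.16 (R 4.3.3). No replicate block was used. Settings tried otherwise include DESeq2 1.42.0 and limma 3.58.1. Totals of about 13174100 to 21247200 counts set the precision: members with 15 to 50 counts per library have wide intervals, and limits at 0 cover counting error only. The method was tested on simulated data. Within-group pairs of libraries differed by more than sampling noise.

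The members and lists were chosen with earlier results of these data known. All 8 members are named. From each other list (167 symbols in all, 163 of them found, 1 under an older symbol) the called genes are named, the 4 with the smallest p where there are more, at most 2 where none was called, and defining markers with few counts. The most similar genes were ranked by r to the mean of the members' standardised log2 CPM (prior count 2). Lengths are those of GENCODE vM21 on GRCm38, the build named in the notes.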

Additional observations from a re-analysis of the deposited data

How the results depend on the processing

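For single members, 448 refits of the 24 fold changes kept their direction and side of the threshold, 15 lost a call, 9 gained 1, and 8 changed sign, all between HFpEF-scr and control and all for H2-DMa or Ctss, whose values lay near 0. H2-DMa was 0.0537 with limma voom and -0.17 to 0.10 without 1 library, and Ctss 0.14 without HFpEF-scr 1 and 2 together and -0.14 to 0.0644 without 1 library. In HFpEF-scr against control, DESeq2 called 2 members in place of 0, counts thinned to the smallest total (chosen after seeing the data) 1, and refits without 1 library 0 to 2. All genes called there, 1001, became 504 in a fit of the compared groups, 560 without HFpEF-scr 1 and 2, and 537 to 1106 without 1 library. Between the hairpins, DESeq2 and the fit of the compared groups each called 3 members in place of 1, and none was called without HFpEF-scr 1 and 2 (0). Refits without 1 library called 0 to 1. The 486 genes called became 857 with DESeq2, 54 without HFpEF-scr 1 and 2, and 162 to 668 without 1 library. In HFpEF-FoxO1-sh against control, 4 to 6 members and 1228 to 1683 genes were called without 1 library. Summing H2-DMb1 and H2-DMb2, also chosen after seeing the data, left the calls as they were.

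The labels do not say that replicate numbers pair the libraries. Deviations of same-numbered libraries correlated between -0.194 and 0.111. In the 3 comparisons 1 of 8, 1 of 8 and 2 of 10 libraries correlated best with their own number. These values gave no sign of pairing, but a weak pairing could give them too and was not excluded. With a replicate block, 770, 291 and 1488 genes and 0, 0 and 5 members were called in the 3 comparisons in the order above. Ctss between the hairpins then had adjusted p = 0.0857 and H2-DMb1 against control 0.0529. Members with few counts, Ciita, H2-DMa and H2-DMb1, are limited by depth.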

Other observations

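Genes that mark kinds of heart macrophages had values of both signs in the libraries labelled HFpEF-FoxO1-sh. Folr2, a marker of resident macrophages, was at 6.10 CPM in the controls, 4.38 in HFpEF-scr and 3.47 in HFpEF-FoxO1-sh, and the resident marker Timd4 gave -0.34 ± 0.30 in HFpEF-FoxO1-sh against control (adjusted p = 0.518). Lyve1, likewise a resident marker, did not fall there, at 0.05 ± 0.10 (adjusted p = 0.808). Its means were 14.9 CPM in the controls, 19.8 in HFpEF-scr and 15.4 in HFpEF-FoxO1-sh. Mertk, another gene of the macrophage list, had means of 12.0, 14.2 and 12.4 CPM in the same groups. Of the 16 genes of that list, 14 lay under 0 in HFpEF-FoxO1-sh against control and 2 above. Ccr2, a marker of macrophages that derive from monocytes, gave 0.48 ± 0.26 in HFpEF-FoxO1-sh against control (adjusted p = 0.245). Cx3cr1, a chemokine receptor of macrophages, fell by 1.33 ± 0.28 in that comparison (adjusted p = 0.00539). Itgam, an integrin chain of myeloid cells, fell by 1.28 ± 0.32 between the hairpins (adjusted p = 0.0388), from 6.64 to 2.70 CPM. The HFpEF-scr libraries 1 to 4 were spread, at 7.88, 3.88, 3.59 and 11.2 CPM, beside at most 3.53 CPM in HFpEF-FoxO1-sh. This call was not made by limma voom. Ly6c1, found on monocytes and endothelium alike, rose by 0.45 ± 0.08 in HFpEF-FoxO1-sh against control (adjusted p = 0.00171). These genes were picked from the marker lists after their values had been seen.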
